A study of Mus musculus with 3 samples.

Results

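The 51 genes described here encode the enzymes that cut the extracellular matrix outside cells and their main inhibitors, and were taken from the 23337 gene symbols of the count files by name alone. They are 23 matrix metalloproteases (Mmp), 19 proteases of the ADAMTS family, 5 ADAMTS-like proteins (Adamtsl) and 4 tissue inhibitors of metalloproteases (Timp). The samples were heart tubes of embryonic day 9.5 mice, 2 Sox7-null (Sox7-/-) and 1 wild type, whose RNA was sequenced in bulk to ask which genes differ when Sox7, a transcription factor of endothelium and endocardium, is absent. The labels give no null allele, no strain and no word on pooling of embryos. The spread behind each p-value comes from the pair of null libraries alone, may be technical, and is taken to hold for the single wild type too.

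Matrix metalloproteases are zinc-dependent enzymes that are made with an inhibitory propeptide, and are either secreted or held at the cell membrane. ADAMTS proteases are secreted, and several of them cleave versican and related proteoglycans, the swelling matrix that lies between myocardium and endocardium in the early heart and is known as cardiac jelly. The ADAMTS-like proteins share the ancillary domains but lack the protease domain, and several bind fibrillin microfibrils. TIMPs block the active site of metalloproteases. In the mouse heart, clearance of cardiac jelly by ADAMTS proteases accompanies the growth of trabeculae and the remodelling of the endocardial cushions.

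Reads assigned to genes numbered 13139823 and 13618338 in the Sox7-null libraries and 13789388 in the wild type. Sox7 had 2 and 7 reads in the Sox7-null libraries against 222 in the wild type, and so was low in the libraries labelled null. Of 10 myocardial markers none was at 0, and 6 rose (Nppa, Myh7, Actn2, Tnnt2, Myh6 and Mybpc3) and 0 fell, with summed levels of 20140 and 18010 CPM (counts scaled to each library's size with edgeR's TMM factors) in Sox7-null and 13800 in wild type. The protocol text names retinal organoids, and 8 retinal markers summed to 1.11 and 0.435 CPM in Sox7-null and 1.13 in wild type, with Six6, Crx, Rcvrn and Six3 among those at 0 in every library. Markers of other cells differed between the groups. Of all genes tested, 11.3% rose and 10.2% fell. All 10 megakaryocyte and platelet markers rose (397 and 244 CPM in sum in Sox7-null against 66.2 in wild type), and 8 of 10 foregut and liver markers fell (2.82 and 4.21 CPM in Sox7-null against 53.2). Of 10 markers of cushion and other mesenchyme 5 fell and 1 rose (556 and 568 CPM in Sox7-null against 538). Most of that sum was Tbx20, the 1 that rose, with 398.4 and 400.5 CPM in Sox7-null against 275.8 in wild type. Of 12 endothelial and endocardial markers 3 rose and 2 fell (579 and 559 CPM in Sox7-null against 547), and of 7 tested epicardial markers 2 rose (1081 and 842 CPM over 8 in Sox7-null against 267). Krt19 alone held 791.6 and 668.8 CPM of the epicardial sum in Sox7-null against 80.99 in wild type. Wt1 also rose, and the other tested epicardial markers had log2 fold changes of both signs and did not pass. With a smooth trend of the fold change on exon length and GC content removed, Wt1 did not pass (edgeR adjusted p = 0.0589). In that setting 1 epicardial, 1 endothelial and endocardial and 4 myocardial markers rose, and 0 mesenchymal markers rose and 6 fell. All 10 megakaryocyte and platelet markers still rose and 8 foregut and liver markers still fell. Among macrophage and leukocyte markers 2 of 9 tested rose and 1 fell, with 43.7 and 19.0 CPM over 13 genes in Sox7-null against 21.8. The part of these cells in the results below was not tested, and in whole tissue fewer cells of a type and less RNA per cell cannot be told apart. None of 8 tested erythroid markers passed, with sums of 4518 and 14350 CPM in Sox7-null against 13910, nor did either tested neural marker. Reads without a unique alignment made up 10.4% and 11.6% of the Sox7-null libraries and 22.3% of the wild type.

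Many of the genes were not detected. In at least 1 library 29 of the 51 genes reached 10 reads, another 9 had 1 to 9 reads, and 13 had no read in any library. The undetected group held all 10 Mmp genes that lie on chromosome 9 in the GENCODE M21 annotation, the group of collagenases, stromelysins and relatives that includes Mmp1a, Mmp3, Mmp10 and Mmp13. The other 3 genes without a read were Mmp24, Adamts13 and Adamts16. A count of 0 allows a level of up to 0.228 and 0.220 CPM in the Sox7-null libraries and 0.218 CPM in the wild type (3 reads, counting error only). Unlike the other CPM values, these limits were scaled to the reads assigned to genes without the TMM factors. Mmp1a and Mmp1b are close copies, so reads that align to both may not have been counted.

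The start-site sequence of the undetected chromosome 9 genes differed in its letters from that of the other members, and 4 of them and 5 of the most abundant or changed members are shown for that reason, chosen with the values known. The sequences are from RefSeq (GRCm38.p6), 5′ to 3′ from 125 bases before to 50 bases after the annotated start, and capitals mark matches on either strand to TGANTCA, which AP-1 factors bind, to TATAAA, the core promoter's TATA box, and to GGGCGG, the GC box of Sp1-like factors.
Mmp3, chr9:7445697-7445871, plus strand: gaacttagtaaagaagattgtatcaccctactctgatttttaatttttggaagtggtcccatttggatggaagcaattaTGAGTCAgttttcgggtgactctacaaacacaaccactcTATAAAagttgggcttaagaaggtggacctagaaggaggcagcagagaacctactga
Mmp10, chr9:7502217-7502391, plus strand: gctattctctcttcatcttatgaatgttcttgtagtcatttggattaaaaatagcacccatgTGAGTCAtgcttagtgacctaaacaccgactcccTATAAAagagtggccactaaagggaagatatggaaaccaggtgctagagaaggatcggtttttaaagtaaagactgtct
Mmp13, chr9:7272389-7272563, plus strand: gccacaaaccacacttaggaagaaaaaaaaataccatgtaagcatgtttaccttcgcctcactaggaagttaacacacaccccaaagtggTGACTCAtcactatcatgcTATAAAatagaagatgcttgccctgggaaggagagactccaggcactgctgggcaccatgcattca
Mmp1a, chr9:7464016-7464190, plus strand: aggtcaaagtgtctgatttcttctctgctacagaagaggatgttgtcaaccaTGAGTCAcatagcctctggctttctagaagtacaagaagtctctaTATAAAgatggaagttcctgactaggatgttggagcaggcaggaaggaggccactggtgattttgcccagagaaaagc
Mmp15, chr8:95352171-95352345, plus strand: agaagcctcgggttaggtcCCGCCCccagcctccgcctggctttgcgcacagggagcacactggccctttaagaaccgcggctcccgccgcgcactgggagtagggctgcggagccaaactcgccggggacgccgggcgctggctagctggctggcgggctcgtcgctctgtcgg
Adamts1, chr16:85803064-85803238, minus strand: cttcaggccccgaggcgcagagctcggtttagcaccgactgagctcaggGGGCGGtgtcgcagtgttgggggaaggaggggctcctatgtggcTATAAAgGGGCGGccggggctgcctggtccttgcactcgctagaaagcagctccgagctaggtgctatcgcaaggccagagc
Adamts9, chr6:92943485-92943659, minus strand: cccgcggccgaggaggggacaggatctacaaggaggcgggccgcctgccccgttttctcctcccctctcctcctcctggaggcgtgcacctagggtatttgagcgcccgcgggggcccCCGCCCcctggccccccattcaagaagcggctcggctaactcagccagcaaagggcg
Timp3, chr10:86300287-86300461, plus strand: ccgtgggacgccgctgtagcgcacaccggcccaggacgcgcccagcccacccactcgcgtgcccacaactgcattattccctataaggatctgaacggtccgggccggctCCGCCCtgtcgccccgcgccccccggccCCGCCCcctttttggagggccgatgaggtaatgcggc
Timp1, chrX:20870041-20870215, plus strand: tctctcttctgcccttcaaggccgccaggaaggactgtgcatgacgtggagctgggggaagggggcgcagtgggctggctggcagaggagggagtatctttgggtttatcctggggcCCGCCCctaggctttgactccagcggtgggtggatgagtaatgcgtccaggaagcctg

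The motif search covered the full windows of 300 bases, from 250 before to 50 after the start, which were matched for 36 of the 51 genes, took in both strands, and included the SOX core motif (AACAAT). In Mmp3, Mmp10, Mmp13 and Mmp1a the AP-1 match began at positions -46, -63, -35 and -73 from the start and the TATA box lay after it, at -7, -29, -16 and -28. No match of one motif overlapped a match of another. Of the 10 chromosome 9 Mmp genes 8 had an AP-1 match, 9 a TATA box and 0 a GC box. A TATA box in these counts is TATAAA at any position of the window on either strand, as at -3 on the opposite strand for Mmp8. Of the 17 members with both a window and 10 or more reads, 0 had an AP-1 match, 2 had a TATA box and 15 had a GC box. The called genes Mmp2, Mmp17 and Adamts5 had no window and are not among them. Of the other 9 members, with under 10 reads and not of the chromosome 9 group, 0 had an AP-1 match, 1 a TATA box and 7 a GC box, and among them Mmp24 and Adamts13 had a GC box and no read. Among all 32851 windows of the same length an AP-1 match was present in 7.81%, a TATA box in 13.6%, a GC box in 35.7% and the SOX core in 10.7%. The SOX core was found in 3 members, Mmp7, Mmp25 and Timp1, and only Timp1 among them reached 10 reads. The windows also differed in GC content, which bears on how often such letters occur. It ran from 37.7% to 52% in the chromosome 9 genes, 55% to 77.3% in the 17 members and 53.3% to 80% in the other 9. The motif matches describe letters and not sites of binding, and the comparison was made after the reads had been seen.

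**Figure D1:**
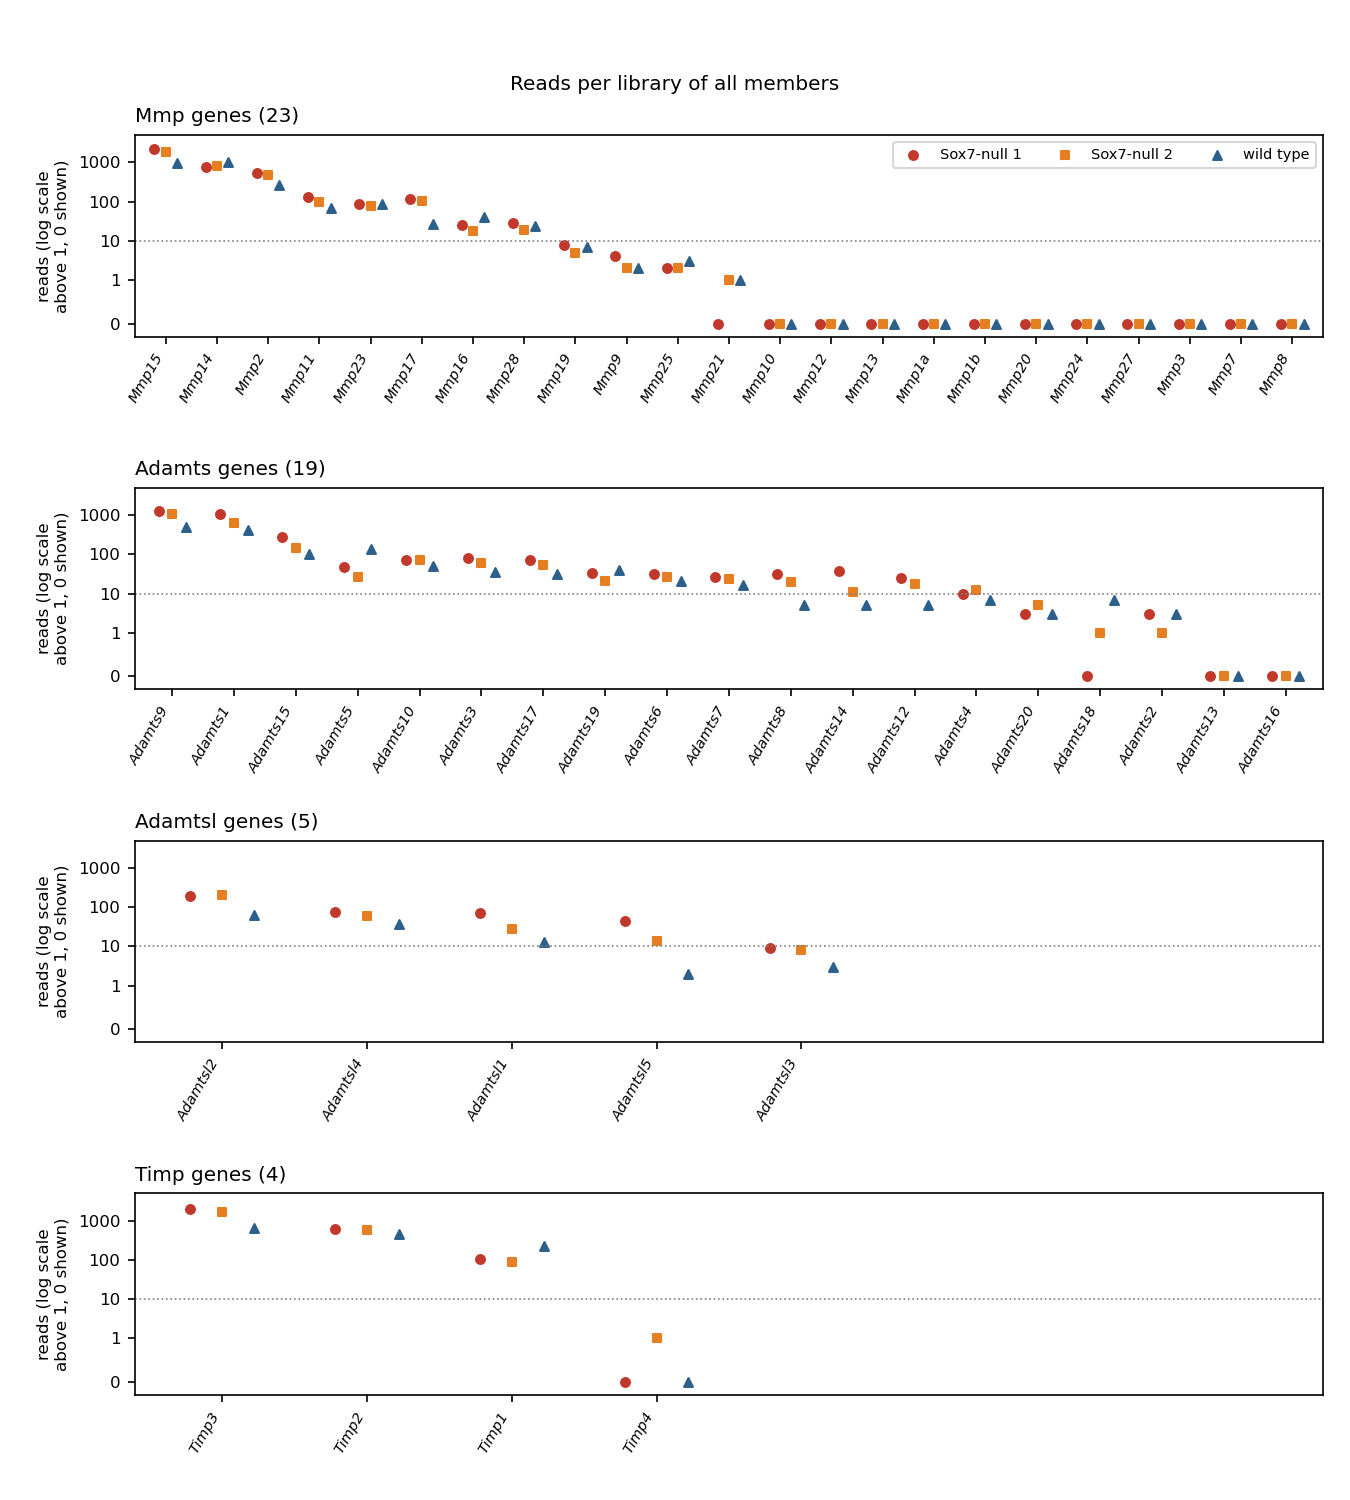
Reads of all 51 genes in both Sox7-null libraries and in the wild type, by family, on an axis that is logarithmic above 1 and shows 0. The dotted line marks 10 reads. The 11 Mmp genes at the right of the top panel had no read in any library, whereas Mmp15 had 2174 and 1861 reads in Sox7-null and 973 in wild type.

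All 29 genes with 10 reads in a library entered the test across the whole table, edgeR's quasi-likelihood test with Benjamini-Hochberg adjustment over 13334 genes. At an adjusted p under 0.05, 8 of the 29 were higher in Sox7-null heart tubes and 2 were lower. Across all genes tested 21.6% were called, 11.3% higher and 10.2% lower, against 27.6% and 6.90% of the tested members. DESeq2 called 7 members higher and 2 lower (7.5% and 5.72% of all genes), limma-voom 7 and 2 (9.39% and 9.73%), and edgeR with a smooth trend of the fold change on exon length and GC content removed 7 and 3 (7.86% and 7.94%). The higher genes were Mmp2, Mmp15, Mmp17, Adamts1, Adamts9, Adamtsl2, Adamtsl5 and Timp3, and the lower genes were Adamts5 and Timp1. The median log2 fold change of the tested members was 0.92, against 0.01 for all genes tested, with 1.01 for the first null library and 0.62 for the second over the same wild type. With that trend removed, the median was 0.54. Of the 29 genes, 5 reached 10 reads in the Sox7-null libraries only, namely Adamts4, Adamts8, Adamts12, Adamts14 and Adamtsl5, so the filter could let them in only where they were high. Among the other 24, 7 rose and 2 fell, with a median of 0.73.

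**Figure D2:**
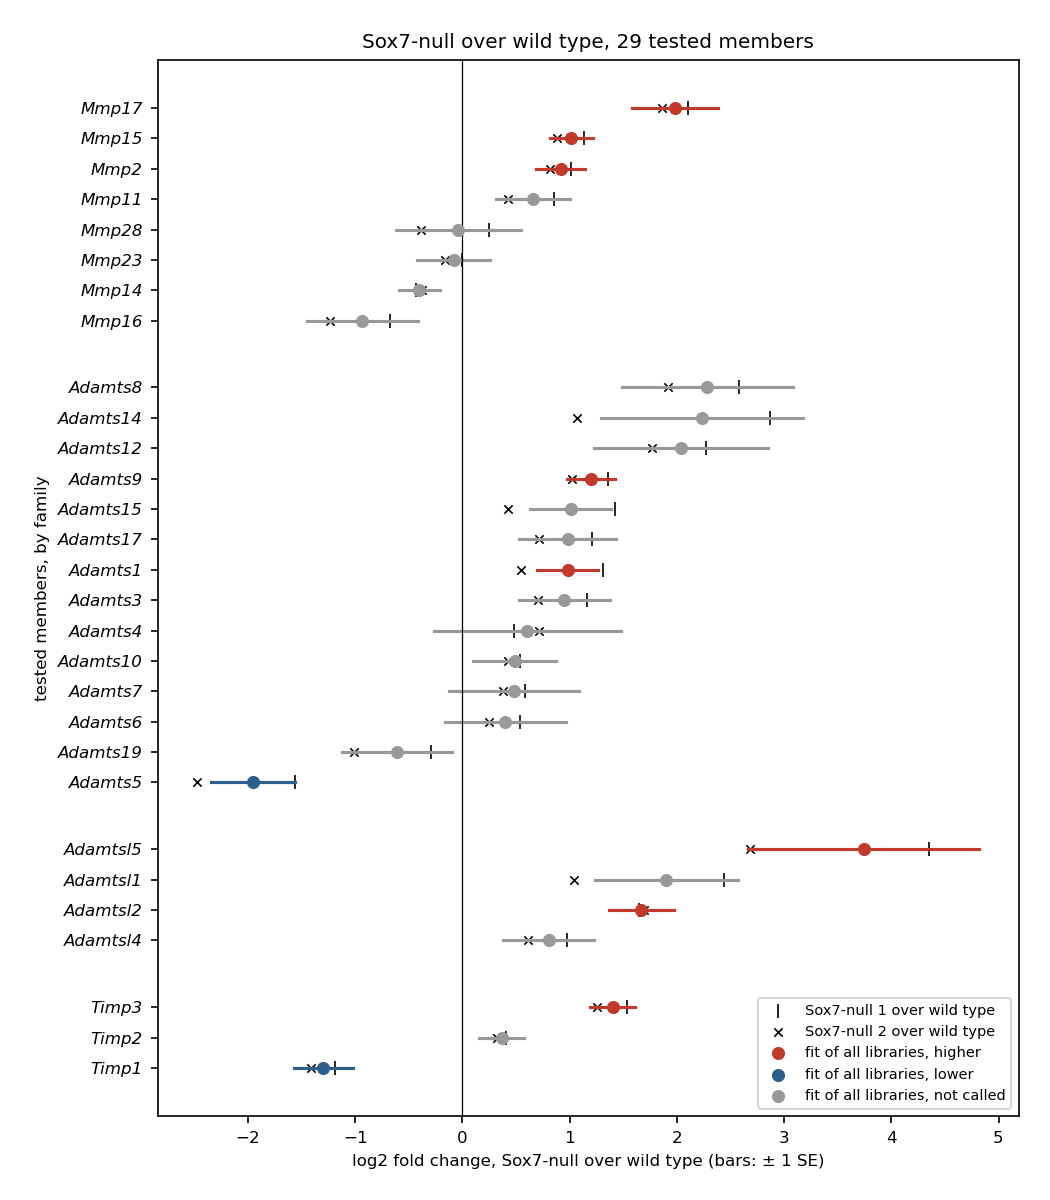
Log2 fold change of each of the 29 tested members, Sox7-null over wild type, with bars of 1 SE from edgeR, and the values of Sox7-null 1 (upright tick) and Sox7-null 2 (cross) over the same wild type. Red marks the 8 higher genes, blue the 2 lower genes and grey the rest. Timp1 and Adamts5 lie below 0 for both null libraries.

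Of 8 tested metalloproteases 3 rose and 0 fell, with a median log2 fold change of 0.31. For this and each family below, 11.3% of all genes tested were higher and 10.2% lower. Both null libraries lay above the wild type for 43.1% of all genes tested and below it for 43%, whether called or not. The family was dominated by Mmp15, Mmp14 and Mmp2, which held 85.6% and 86.8% of the family's summed level per exon length in Sox7-null and 84.2% in wild type. Mmp15, a membrane-type protease, had 2174 and 1861 reads in Sox7-null against 973 in wild type. Both null libraries lay above the wild type, and the log2 fold change was 1.01 ± 0.20 (SE; edgeR adjusted p = 0.00450). It was 0.59 and did not pass (edgeR adjusted p = 0.0533) with the trend on length and GC removed. Mmp2, the secreted gelatinase, had 531 and 474 reads in Sox7-null against 259 in wild type and rose, with a log2 fold change of 0.92 ± 0.23 (adjusted p = 0.0134 by edgeR).

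Mmp14, the membrane-type protease that activates the Mmp2 proenzyme together with Timp2, had the opposite sign. It had 757 and 802 reads in Sox7-null against 1003 in wild type, so that both null libraries lay below the wild type. The log2 fold change of -0.40 ± 0.19 did not pass (edgeR adjusted p = 0.154), but with the trend on length and GC removed it was -0.71 (edgeR adjusted p = 0.0226). Timp2 itself had 607 and 585 reads in Sox7-null against 450 in wild type, and its log2 fold change of 0.37 ± 0.21 did not pass either (edgeR adjusted p = 0.233). Per exon length, Mmp15 stood at 29.9 and 25.0 CPM per kilobase in Sox7-null against 13.6 in wild type, and Mmp14 at 9.42 and 9.77 against 12.7. In the wild type these levels of Mmp15 and Mmp14 were thus close, while in each null library the level of Mmp15 was the higher.

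Mmp17, a membrane-type protease held by a glycolipid anchor, had the largest fold change of the tested Mmp genes. It had 118 and 102 reads in Sox7-null against 27 in wild type, and the log2 fold change was 1.98 ± 0.40 (edgeR adjusted p = 0.00484). Both null libraries lay above the wild type, as they did for 43.1% of all genes tested. The other 4 tested Mmp genes did not pass. Mmp11, a secreted protease that is activated inside the cell by furin, had 129 and 98 reads in Sox7-null against 70 in wild type (log2 fold change 0.66 ± 0.35, edgeR adjusted p = 0.198). An exon of Mmp11 overlaps the abundant Chchd10 on the other strand (3800 and 3247 reads in Sox7-null against 2981), so without the strand setting its reads are uncertain. Mmp23 had 86 and 79 reads in Sox7-null against 85, and Mmp28 had 29 and 19 against 24. For Mmp28 the wild type lay between the null libraries. The membrane-type gene Mmp16 had 26 and 18 reads in Sox7-null against 41 in wild type (log2 fold change -0.93 ± 0.52, edgeR adjusted p = 0.222). Mmp9, the second gelatinase and a product of leukocytes among others, had 4 and 2 reads in Sox7-null against 2, and Mmp19 had 8 and 5 against 7. Mmp25 and Mmp21 had at most 3 reads in a library.

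Of 14 tested ADAMTS proteases 2 rose and 1 fell, with a median log2 fold change of 0.96. These shares, 14.3% and 7.14%, were near the 11.3% and 10.2% of all genes tested. Over the 10 that reached 10 reads in the wild type too, 2 rose and 1 fell, and the median was 0.72. Adamts1 and Adamts9 held most of the reads, 75.8% and 77.7% of the family's in Sox7-null and 66.2% in wild type. Both encode proteases that cleave versican. Adamts9 had 1317 and 1068 reads in Sox7-null against 505 in wild type, and rose, with a log2 fold change of 1.20 ± 0.22 (adjusted p = 0.00304 by edgeR). Adamts1, which is known in the mouse as a gene that the chromatin remodeller BRG1 keeps low in early endocardium, had 1076 and 647 reads in Sox7-null against 426 in wild type. Its log2 fold change was 0.98 ± 0.29 (edgeR adjusted p = 0.0282), and the null libraries stood apart, at 1.31 and 0.55 over the wild type. With the trend on length and GC removed, Adamts9 was at 0.80 (edgeR adjusted p = 0.0186). Adamts1 was then at 0.85 and only just passed (edgeR adjusted p = 0.0483). Smarca4, the gene of BRG1, had 2087 and 2309 reads in Sox7-null against 2118 in wild type (log2 fold change 0.01 ± 0.18, edgeR adjusted p = 0.967).

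Adamts5, another versican-cleaving protease, fell. It had 48 and 26 reads in Sox7-null against 140 in wild type, or -1.95 ± 0.40 in log2 fold change (adjusted p = 0.00496 by edgeR), and -2.11 with the trend on length and GC removed. On the summed counts its level was 0.257 of that in the wild type (95% exact interval for counting error 0.191 to 0.343). Adamts1 and Adamts5 are neighbours on chromosome 16, with no other protein-coding gene of GENCODE M21 between them, and they differed from the wild type in opposite directions. Beside the fall of Adamts5, 5 of 10 mesenchymal markers fell (Msx1, Twist1, Sox9, Msx2 and Foxc1), Tbx20 rose and 4 did not pass. The summed level of the 10 was 556 and 568 CPM in Sox7-null and 538 in wild type. Most of that sum was Tbx20, with 398.4 and 400.5 CPM in Sox7-null against 275.8 in wild type, so the sum does not show the fall of the 5. The part of these markers' cells in the fall of Adamts5 was not tested. Adamts19, a gene of valve cells in the mouse, had 34 and 21 reads in Sox7-null against 41 in wild type (log2 fold change -0.61 ± 0.51, edgeR adjusted p = 0.426). Adamts18 had 0 and 1 reads in Sox7-null against 7 in wild type and was too low to be tested.

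Of the 11 tested ADAMTS genes that did not pass, Adamts19 had a negative value and the other 10 had positive ones. Of those 10, Adamts4, Adamts8, Adamts12 and Adamts14 reached 10 reads in the Sox7-null libraries only, which leaves 6. Adamts8 and Adamts15, which are neighbours on chromosome 9, had log2 fold changes of 2.29 ± 0.79 (edgeR adjusted p = 0.0574) and 1.01 ± 0.38 (edgeR adjusted p = 0.0743). Adamts8 had 31 and 20 reads in Sox7-null against 5 in wild type, and Adamts15 had 284 and 145 against 104. Both null libraries lay above the wild type for each of them. Adamts14, a procollagen N-propeptidase, had 38 and 11 reads in Sox7-null against 5 in wild type, and so differed more between the null libraries than Sox7-null 2 did from the wild type. Adamts12 had 25 and 18 reads in Sox7-null against 5. Adamts3, which with Ccbe1 activates the lymphatic growth factor VEGF-C, had 82 and 61 reads in Sox7-null against 36 in wild type (log2 fold change 0.95 ± 0.43, edgeR adjusted p = 0.131). Adamts17 had 73 and 53 reads in Sox7-null against 31, and Adamts10, which like Adamts17 acts on fibrillin microfibrils, had 74 and 70 against 50. Adamts4, Adamts6 and Adamts7 had log2 fold changes of 0.60, 0.40 and 0.49 and between 7 and 31 reads in any library.

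Of the ADAMTS-like genes, all 4 that were tested had positive values and 2 rose, or 3 and 1 without Adamtsl5, which reached 10 reads in the Sox7-null libraries only. Adamtsl2, whose product binds fibrillin microfibrils and latent TGF-beta complexes, had 197 and 209 reads in Sox7-null against 62 in wild type. The null libraries lay close together, and the log2 fold change was 1.67 ± 0.30 (edgeR adjusted p = 0.00278). Adamtsl5 had 44 and 14 reads in Sox7-null against 2 in wild type, a level 14.1 times that of the wild type on the summed counts (95% exact interval for counting error 3.73 to 119). Its log2 fold change of 3.74 ± 1.08 passed with edgeR (adjusted p = 0.0266) but not with DESeq2 (adjusted p = 0.0874) or limma-voom (adjusted p = 0.107). Adamtsl1 had 72 and 28 reads in Sox7-null against 13 in wild type (log2 fold change 1.90 ± 0.67, edgeR adjusted p = 0.0594), and Adamtsl4 had 74 and 59 against 37 (0.81 ± 0.42, edgeR adjusted p = 0.195). Adamtsl3, below the filter, had 9 and 8 reads in Sox7-null against 3.

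Of 3 tested inhibitor genes Timp3 rose, Timp1 fell and Timp2 did not pass. Timp3, whose product stays bound to the matrix and also inhibits several ADAM and ADAMTS proteases, had 1968 and 1660 reads in Sox7-null against 669 in wild type. It rose, with a log2 fold change of 1.40 ± 0.21 (adjusted p = 0.00114 by edgeR), and both null libraries lay well above the wild type. Timp1, a freely secreted inhibitor that acts poorly on most membrane-type enzymes, had 103 and 90 reads in Sox7-null against 231 in wild type. It fell, by a log2 change of -1.30 ± 0.27 (edgeR adjusted p = 0.00625), and the null libraries lay close together below the wild type. With the trend on length and GC removed, the value for Timp1 was -0.88 and only just passed (edgeR adjusted p = 0.0483). Timp4 had 0 and 1 reads in Sox7-null against 0.

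Per exon length the sum of the Timp genes was 38.1 and 33.1 CPM per kilobase in Sox7-null and 34.5 in wild type, and its make-up differed. Timp3 held 47.1% and 44.7% of this sum in Sox7-null against 17.9% in wild type, whereas Timp1 held 22.6% and 22.2% in Sox7-null against 56.8%. Without the division by length Timp1 held 3.85% and 3.85% of the family's CPM in Sox7-null against 17.1%, since its transcript is short. Ranked by level per exon length among the 29 tested genes, Timp1 stood at 7 in each Sox7-null library and at 1 in the wild type, and Mmp15 stood at 1 in each Sox7-null library and at 2 in the wild type. The summed level of the Mmp genes was 59.5 and 51.8 in Sox7-null against 38.1 in wild type, and that of the Adamts genes was 28.6 and 18.6 against 12.6. Timp1 and Timp3 each lie within a synapsin gene on the other strand, and the strand setting of the counting is not given in the sources used here. Those genes had few reads, with 8 and 4 for Syn1 in Sox7-null against 4 in wild type, and 10 and 17 for Syn3 against 7.

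**Figure D3:**
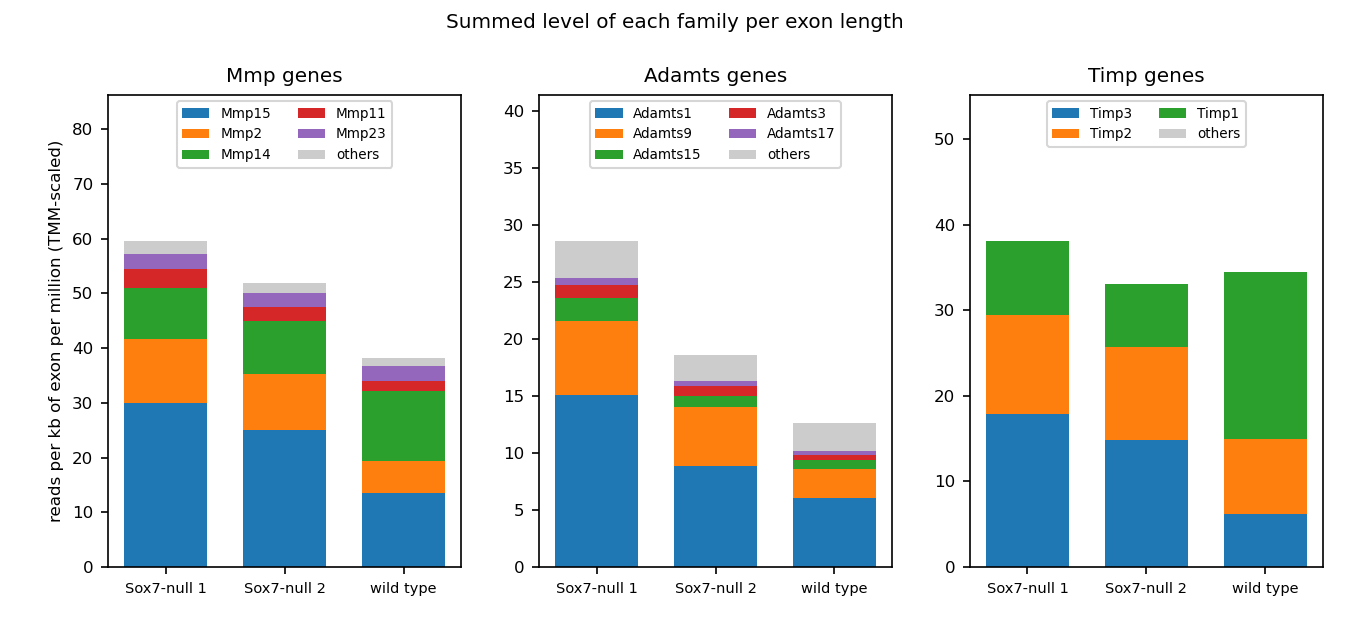
Stacked bars of the level per exon length (CPM per kilobase of exon) of the Mmp, Adamts and Timp genes in both Sox7-null libraries and in the wild type, with the most abundant genes in colour and the others in grey. The Timp bars are of like height, at 38.1 and 33.1 in Sox7-null and 34.5 in wild type, while the Timp1 share is the smaller in Sox7-null and the Timp3 share the larger.

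Between the null libraries, 26 of the 29 tested genes had a higher CPM in Sox7-null 1 than in Sox7-null 2, and 3 had a lower one, while 50.4% of all genes tested were higher in Sox7-null 1. Adamtsl5 had log2 fold changes of 4.35 and 2.68 in the first and the second null library over the wild type, whereas Adamtsl2 had 1.64 and 1.70 and Mmp17 had 2.10 and 1.86. Against the wild type, 22 of the 29 had a higher CPM in both null libraries, 6 had a lower one in both, and Mmp28 had 1 value on each side, where 43.1% of all genes tested lay above it in both and 43% below it in both. Without the 5 genes that reached 10 reads in Sox7-null only, 17 of 24 lay above and 6 below.

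Genes that control the activity of these enzymes were examined in lists of their own. Beside the counts of every list stand the shares of all genes tested, 11.3% higher and 10.2% lower. With the trend on length and GC removed those shares were 7.86% and 7.94%. Of 10 tested regulators outside the families 4 rose and 0 fell, with a median log2 fold change of 0.81. A2m, a broad protease trap, had 515 and 226 reads in Sox7-null against 24 in wild type (log2 fold change 3.91 ± 0.52, edgeR adjusted p = 0.000541). Bsg, which encodes the metalloprotease inducer basigin, rose by 1.19 ± 0.16 (edgeR adjusted p = 0.000570), and Lrp1, the receptor that clears proteases and their inhibitors, by 0.64 ± 0.21 (edgeR adjusted p = 0.0493). The value for Lrp1 was -0.03 with the trend on length and GC removed, where 3 genes of this list rose and 0 fell. Reck, a membrane-anchored inhibitor of metalloproteases, had 155 and 166 reads in Sox7-null against 99 in wild type and did not pass (edgeR adjusted p = 0.128).

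In the list of maturation and secretion 3 of 10 tested genes rose and 1 fell (median 0.25). Furin, the proprotein convertase that activates many of these enzymes, rose by 1.02 ± 0.21 (edgeR adjusted p = 0.00507), and the related convertase gene Pcsk5 by 1.29 ± 0.28 (edgeR adjusted p = 0.00728). Thsd4, an ADAMTS-like gene under another name, had 759 and 691 reads in Sox7-null against 158 in wild type (2.16 ± 0.24, edgeR adjusted p = 0.000217). Pcolce2, an enhancer of procollagen processing, had 7 and 12 reads in Sox7-null against 39 and fell (-2.06 ± 0.61, edgeR adjusted p = 0.0307). With the trend on length and GC removed, Furin and Pcsk5 did not pass (edgeR adjusted p = 0.0844 and 0.0560), and 1 gene of this list rose and 2 fell.

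Of 28 tested matrix substrates 13 rose and 2 fell, with a median of 0.78, or 10 and 3 with the trend on length and GC removed. Vcan, the versican of cardiac jelly, had 20337 and 15762 reads in Sox7-null against 9643 in wild type (0.87 ± 0.18, edgeR adjusted p = 0.00509). The genes of its partners did not pass, with Has2, the hyaluronan synthase, at -0.52 ± 0.21 (edgeR adjusted p = 0.0872) and the link protein gene Hapln1 at -0.54 ± 0.19 (edgeR adjusted p = 0.0630). The largest rises were in Thbs1 (2.56 ± 0.30), Bgn (2.35 ± 0.36) and Col4a2 (2.26 ± 0.28), and the genes that fell were Lum (-2.71 ± 0.84), with 2 and 5 reads in Sox7-null against 23 in wild type, and Reln (-1.68 ± 0.46). Of 15 tested metalloproteases of other families 5 rose and 1 fell (median 0.41), or 2 and 1 with the trend on length and GC removed. Adam9 rose by 1.03 ± 0.25, while Adam10, which encodes a sheddase, had 2202 and 1933 reads in Sox7-null against 2021 (-0.01 ± 0.19, edgeR adjusted p = 0.985).

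Of 18 tested transcription regulators that have been studied at Mmp and Adamts genes 6 rose and 1 fell (median 0.40). With the trend on length and GC removed, 4 rose and 1 fell. The AP-1 genes Fosl2 and Junb rose by 2.40 ± 0.38 (edgeR adjusted p = 0.00147) and 2.23 ± 0.37 (edgeR adjusted p = 0.00184), and Fos by 1.16 ± 0.29 (edgeR adjusted p = 0.0142). Jund rose by 0.66 ± 0.18 (edgeR adjusted p = 0.0189) but did not pass with the trend removed (edgeR adjusted p = 0.0521). Jun and Fosb did not pass (edgeR adjusted p = 0.146 and 0.302), and Fosl1 had no read in any library. The chromosome 9 Mmp genes whose start-site sequences are printed above with AP-1 matches had no read in any library, wild type included. Whether AP-1 factors act at any of the members was not tested. Snai1 and Snai2, regulators of the cushion's mesenchymal transition, had values of -1.02 ± 0.40 and -0.89 ± 0.37 and did not pass (edgeR adjusted p = 0.0845 and 0.106).

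**Figure D4:**
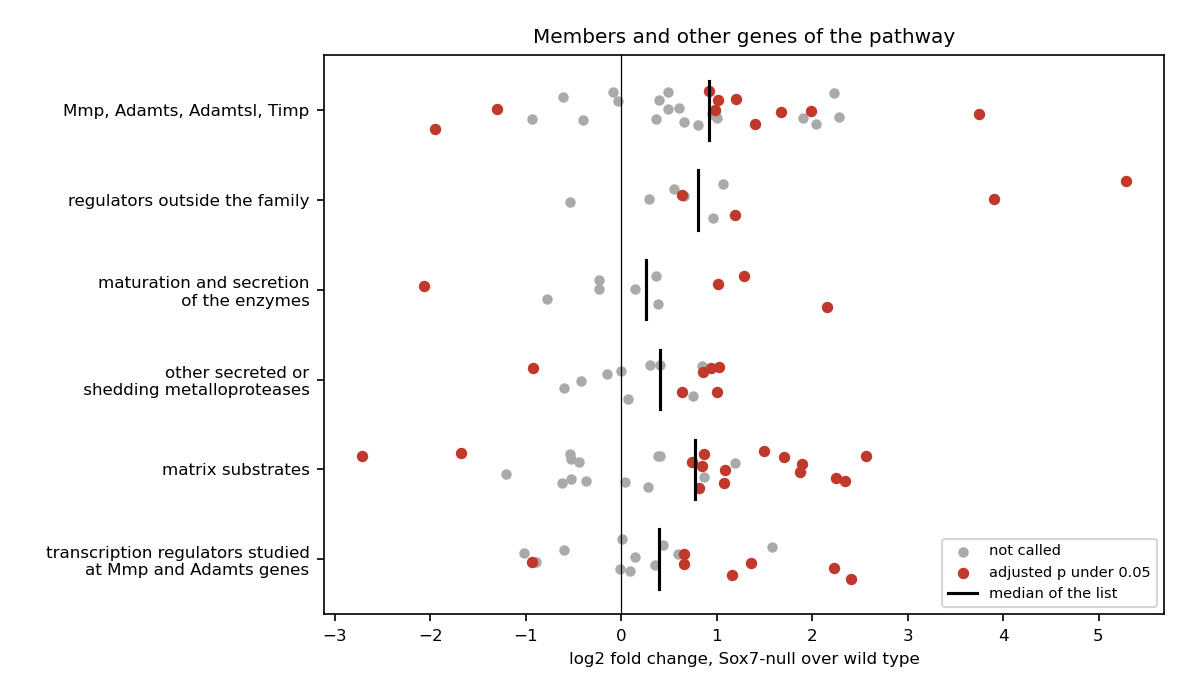
Log2 fold change, Sox7-null over wild type, of each tested gene among the 29 tested members and in 5 lists of related genes, with red points for an adjusted p under 0.05 and a black line at each median. The medians run from 0.25 for maturation and secretion to 0.92 for the members, against 0.01 for all genes tested. Over the 24 members that reached 10 reads in the wild type too, the median was 0.73.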

How the data were processed

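Each library's file holds raw counts of reads for each gene symbol, as deposited by the authors, with summary lines of the kind HTSeq writes. The submitters' processing notes name CASAVA, TopHat2, HTSeq and DESeq2 1.10.1, with no order. Builds hg19 and GRCh37 stand in those notes although the symbols are of mouse, and which annotation and strand setting the counting used is not given in the sources used here. The kit was a stranded one, per the labels' protocols. The 5 summary lines of each file held 20.8% and 22.4% of reads in Sox7-null and 35.9% in wild type and were left out.

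Members were found by symbol pattern. They, the lists and the tests were chosen with earlier results of these data known. Counts were tested with edgeR 4.0.16 (glmQLFit, glmQLFTest) in R 4.3.3, with TMM scaling (factors 1.03 and 1.01 in Sox7-null, 0.962 in wild type), filterByExpr at a minimum count of 10 (13334 genes kept) and genotype as the only term. There was 1 residual degree of freedom and 11.8 prior degrees of freedom. The SE is the size of a log2 fold change divided by the square root of its F statistic. CPM are TMM-scaled. Exon lengths are unions of GENCODE M21 exons, found for all 51 members. Exact intervals and zero-count limits reflect counting error alone, because reads are not independent molecules. No 2 libraries agreed within sampling noise (chi-square per degree of freedom 16.2 between the Sox7-null libraries). Alternatives were RLE and upper-quartile factors, library totals alone, other filters, DESeq2 1.42.0, limma-voom 3.58.1, removal of a length and GC trend (mgcv 1.9.3), and each null library left out. All members could be named, with full values for called and abundant ones and those whose call changed. Of other lists up to 4 called genes were named by size of change, and others where a description needed them, chosen after their values were seen. A few other genes are not reported here.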

Additional observations from a re-analysis of the deposited data

How the results depend on the processing

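The 8 higher and 2 lower members were all called with RLE and upper-quartile factors, library totals and a minimum mean of 1 CPM. Calls were lost for Adamtsl5 with DESeq2 and limma-voom and for Mmp15 with the trend on length and GC removed, and gained for Mmp14 (lower) with that trend removed, Adamtsl1 with upper-quartile factors (edgeR adjusted p = 0.0483), Adamts8 at a minimum mean of 1 CPM (edgeR adjusted p = 0.0494), and Adamts8, Adamts15 and Adamtsl1 with library totals. With no filter beyond 1 read, edgeR called 0 members higher and 0 lower and 0 and 0 of all 17242 genes, with 3.23 prior degrees of freedom; at an unadjusted p under 0.05 it had 9 members higher and 3 lower, and 2147 and 1966 of all genes. DESeq2 called 922 genes higher and 704 lower over the table, against 1508 and 1366. The members' median was 0.54 with the trend on length and GC removed, where the cause was not tested, and 0.62 and 1.01 with 1 or the other null library left out. Leaving out a null library leaves 1 against 1, with no test and no count of calls, and no call could be made without the single wild-type library. No paired analysis was possible because the groups share no replicate number. Depth limits the low genes: Mmp17, with 27 wild-type reads, had a standard error of 0.40, and tested members with fewer had larger ones.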
